A study of Cucumis sativus with 6 samples.

Results

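In cucumber (Cucumis sativus) fruit on the day the flower opened, a small set of genes supplied 10.5% to 11.6% of the counted reads. Of 17073 listed genes, 77 (0.451%) had a mean of at least 800 RPM over the 6 libraries and line means that differed by less than 1 on the log2(RPM + 1) scale. RPM is reads per 1000000 reads counted in the listed genes, so a level of 800 RPM means that 0.08% of a library's reads fell in that gene. A further 4 genes reached the level and were left out because their line means differed by 1 or more. The members were chosen on their levels and on the size of their line difference in these libraries, so both are given as description.

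The libraries came from 2 near-isogenic lines, 32X and GFC, with 3 replicates each. Lines of this kind are nearly identical in genome apart from segments kept from a donor. Both are described as northern China type cucumbers with short, light green fruit, grown in a greenhouse, with no treatment named for either. The genotype field reads inbred line 1461 for all 6 samples, so the lines were told apart by sample title alone. By its title the study is about carpel number, that is, how many fused units form the fruit, and the samples are whole fruit, a mixture of many cell types. Whether the replicates came from separate plants is not stated, so the spread between them may be technical. In whole fruit, fewer cells of a type and less RNA per cell cannot be told apart.

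A fruit on the day of flower opening is a mature ovary, with a wall, placental tissue and ovules. In plant tissues the transcripts that take the most reads commonly belong to genes for basic work of the cell, such as protein synthesis, protein turnover, the cytoskeleton and protection from stress, along with products of abundant specialised cells. Which of these classes the 77 genes belong to was not determined: 0 of the 17073 IDs matched the RefSeq gene table of cucumber, and the deposited table gives IDs only. The genes are therefore described by ID and by level, and markers of fruit tissue were not checked. RPM is not divided by transcript length, which was not used here, so an order by RPM is an order of reads and not of transcript number. For that reason the set is called the most read genes and not the most abundant transcripts, although 4 genes of that level lie outside it.

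The recovered depth of a library was 15320600 to 18089654 reads, which puts a single read at 0.0553 to 0.0653 RPM. Each member had between 7106 and 110861 reads in a library, so that counting error alone gave a coefficient of variation (CV, the SD as a percentage of the mean) of 0.312% to 0.947% for a member in a library of average depth. Intervals below are 95% Wilson intervals and cover counting error only.

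The 77 genes held nearly the same share of the reads in both lines. The rule favours this, since it leaves out genes with a line difference of 1 or more. In 32X they took 11.2%, 11.0% and 11.2% of the reads of replicates 1 to 3, with a mean of 11.15% ± 0.128 (SD, n = 3). In GFC they took 10.5%, 11.6% and 10.9%, with a mean of 11.00% ± 0.553 (SD, n = 3). The interval of the GFC replicate 2 share was 11.58% to 11.61% and that of GFC replicate 1 was 10.49% to 10.52%, so the GFC libraries differed from each other by far more than counting error. The lines overlapped: the lowest and the highest share were both in GFC. The mean difference, GFC minus 32X, was -0.157 percentage points, smaller than the SD between GFC replicates, and without GFC replicate 1 it was 0.0904 points. Without GFC replicate 2 it was -0.455 points, without replicate 3 -0.107, and without 32X replicates 1, 2 and 3 -0.123, -0.231 and -0.117. With no limit on the line difference the shares were 11.6% in 32X and 11.3% in GFC, a difference of -0.312 points. At a limit of 500 RPM the difference was 0.211 points.

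**Figure D1:**
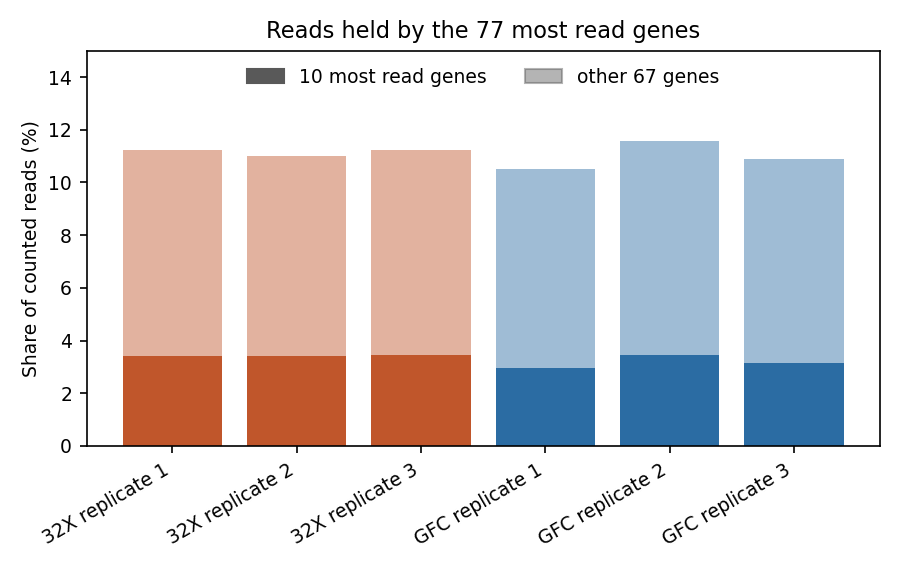
Share of counted reads (%) held by the 77 members in each library of 32X (orange) and GFC (blue), with the 10 most read of them in the darker shade. The bars reach 10.5% to 11.6%, and the lowest and the highest are both GFC libraries.

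Within that total, reads were distributed unevenly between the genes. The mean level of a member ran from 809 to 5695 RPM with a median of 1121 RPM, where the median over all listed genes was 25.8 RPM. Only 4 genes exceeded 3000 RPM, 8 lay between 2000 and 3000 RPM, 8 between 1500 and 2000 RPM, 36 between 1000 and 1500 RPM and 21 between 800 and 1000 RPM. The 10 most read members accounted for 3.43% ± 0.0274 of 32X reads and 3.19% ± 0.243 of GFC reads (SD, n = 3). These 10 genes took 3.40% to 3.45% in the libraries of 32X and 2.97% to 3.45% in those of GFC, so GFC replicate 2 lay within the range of 32X and the other GFC libraries below it. Of the 77 genes, 48 were at 800 RPM or above in every library. The lowest value of any member was 464 RPM, in 32X replicate 2.

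The single most read gene, Csa6G139750, was first in every library. It was read at 6148, 6300 and 6536 RPM in 32X and at 4763, 5480 and 4942 RPM in GFC, for 32X replicates 1 to 3 and GFC replicates 1 to 3 in this order, which is kept below. All GFC libraries were below all 32X libraries, which held for 22% of all listed genes. The gene accounted for 0.633% ± 0.0195 of 32X reads and 0.506% ± 0.0373 of GFC reads (SD, n = 3). Its log2 difference, GFC minus 32X, was -0.32 ± 0.18 (SE from the fit over all genes, as for all log2 differences below). That fit (limma, adjusted p under 0.05) did not call this gene.

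The next 3 places were held by the same 3 genes in both lines, in a different order. Csa6G448110 was read at 4715, 4652 and 4916 RPM in 32X and at 3693, 4348 and 4148 RPM in GFC. Its rank was 2 in all 32X libraries and 4 in all GFC libraries. Csa2G139820 was read at 4022, 3084 and 3910 RPM in 32X and at 4377, 4839 and 4524 RPM in GFC, with ranks of 3, 7 and 3 against 2, 3 and 2. Csa4G000580 was read at 3814, 2762 and 3350 RPM in 32X and at 4009, 4919 and 4352 RPM in GFC, with ranks of 4, 9 and 4 against 3, 2 and 3. For the last 2 genes every GFC library was above every 32X library and 32X replicate 2 was the lowest of all. Their log2 differences were 0.33 ± 0.17 and 0.43 ± 0.18, against -0.23 ± 0.16 for Csa6G448110. That of Csa2G139820 was 0.21 without 32X replicate 2 and 0.40 without 32X replicate 1. GFC fully above 32X was found in 21.4% of all listed genes, and the fit called none of these 3 genes.

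Places 5 to 10 by mean level included genes with a wider range of ranks. Csa3G154390 was read at 2736, 3531 and 3164 RPM in 32X and at 2407, 2309 and 2307 RPM in GFC, and stayed between ranks 4 and 8. Csa7G014450 was read at 2353, 2135 and 2192 RPM in 32X and at 2432, 2876 and 2711 RPM in GFC, a shift from rank 10 to rank 6 of the line means. Both kept their lines apart, the first lower and the second higher in GFC, with log2 differences of -0.42 ± 0.15 and 0.26 ± 0.14. Csa5G198770 was read at 2503, 3330 and 3004 RPM in 32X and at 1898, 2103 and 2033 RPM in GFC. Csa6G522680 was read at 2884, 3458 and 3155 RPM in 32X and at 1824, 2056 and 1817 RPM in GFC, and moved from rank 5 to rank 13. These 2 genes had log2 differences of -0.54 ± 0.15 and -0.74 ± 0.14, and their lines did not overlap. Csa6G356990 was read at 2403, 3903 and 2359 RPM in 32X and at 1619, 1385 and 1570 RPM in GFC. Its highest value, in 32X replicate 2, stood well above the other 32X libraries, and its log2 difference was -0.88 ± 0.20. The fit called Csa5G198770, Csa6G522680 and Csa6G356990 lower in GFC, as it did 12.2% of all genes. It did not call Csa3G154390 or Csa7G014450. Lines fully apart, in either direction, were found in 43.4% of all listed genes.

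**Figure D2:**
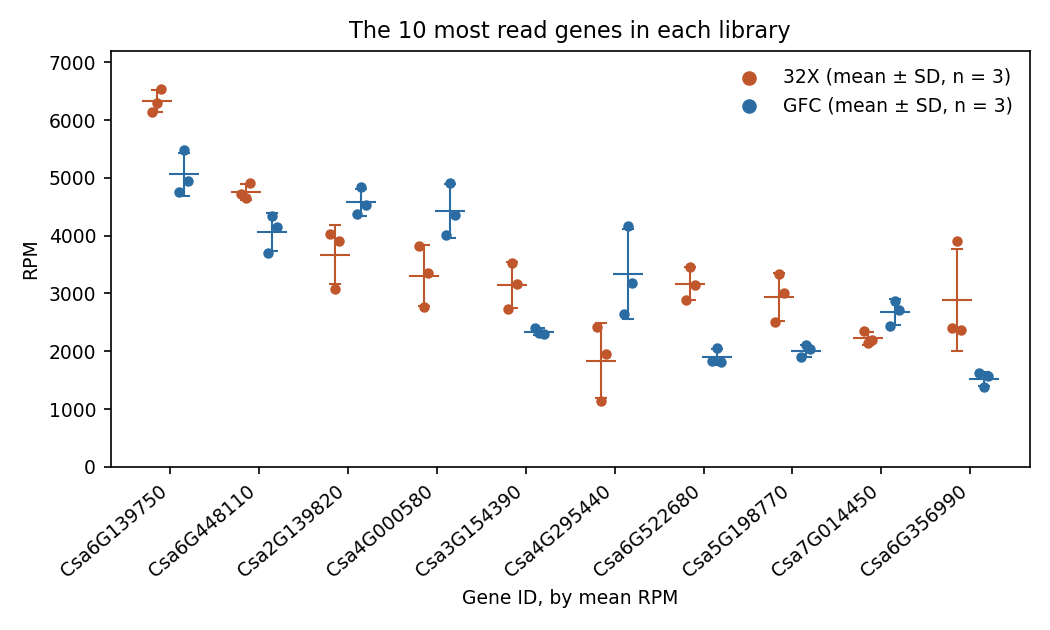
RPM of the 10 most read genes in each library, with points for libraries and bars for the mean ± SD of 32X (orange) and GFC (blue), n = 3 each. Csa6G139750 is highest in all 6 libraries, and the widest spreads within a line are those of Csa6G356990 in 32X and Csa4G295440 in GFC.

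Ranks were shared between the lines in part. The 10 most read genes of the line means had 7 genes in common between 32X and GFC. Only 5 genes were among the 10 most read of all 6 libraries, and 15 genes were among the 10 most read of at least 1 library. Of the 77 members, 35 were among the 50 most read genes of both lines, 11 of 32X alone, 14 of GFC alone and 17 of neither. The rank of a member in the line means changed by a median of 13 places. It changed by at most 5 places for 21 members and by more than 20 places for 32. The largest gain in GFC was 60 places, by a gene with line means of 735 RPM in 32X and 1262 RPM in GFC. The largest loss was 85 places, by a gene with 1303 RPM in 32X and 684 RPM in GFC.

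The direction of the line difference was mixed. By the mean of log2(RPM + 1), 42 members were higher and 35 lower in GFC, with a median log2 difference of 0.02 against 0.00 over all genes. In line means of RPM, the differences of the 40 members that were higher in GFC summed to 13985 RPM and those of the 37 that were lower to -15556 RPM, which leaves the small net difference in share described above. The median absolute log2 difference was 0.33 for the members, 0.19 for the 2309 genes with a mean of 100 to 800 RPM and 0.20 over all listed genes. The members' value is capped by the rule and theirs is not. Leaving out 32X replicate 2 turned the direction of 8 members, leaving out GFC replicate 2 that of 3, and leaving out any other library that of 2. TMM and median-of-ratios scaling, which moved the median of all genes by less than 0.01, turned none. Under quantile normalization, which sets the first place of every library to the same value and so puts Csa6G139750 at no difference, 4 members no longer had their direction.

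The members were divided by the size of their line difference. For 14 members it was under 0.1 (less than 1.07-fold), for 42 between 0.1 and 0.5 and for 21 at least 0.5 (1.41-fold). In the middle class 28 were higher and 14 lower in GFC. In the class of at least 0.5 the balance was the other way, with 7 higher and 14 lower. A difference of at least 0.5 was found in 27.3% of the members, against 14.7% of all listed genes and 10.6% of the genes with 100 to 800 RPM, and since the rule itself limits this difference nothing is read from the comparison. Without 32X replicates 1, 2 and 3 the class of at least 0.5 held 10, 4 and 7 higher and 16, 12 and 12 lower. Without GFC replicates 1, 2 and 3 it held 8, 8 and 7 higher and 12, 14 and 14 lower.

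**Figure D3:**
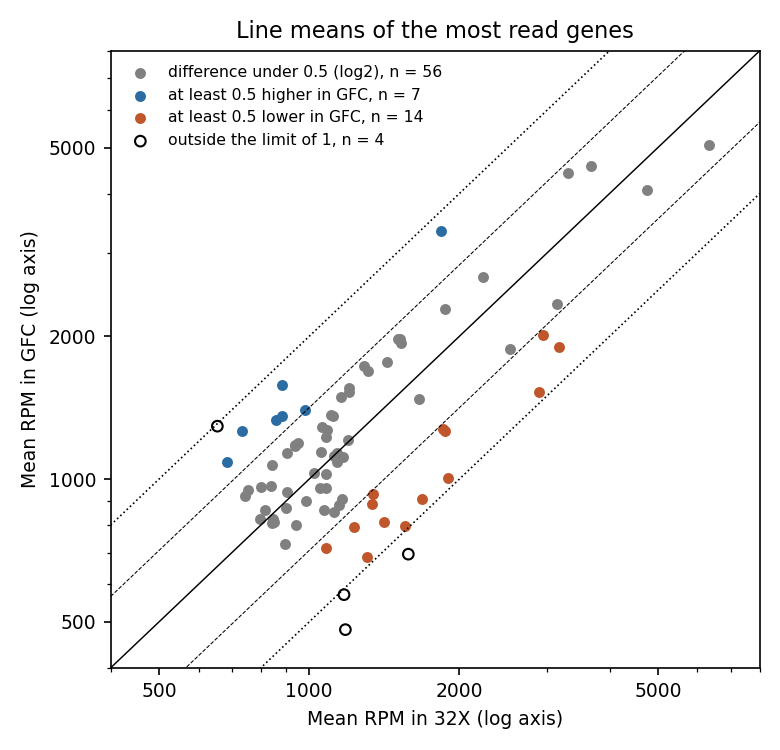
Mean RPM in GFC against mean RPM in 32X for the 77 members (filled) and the 4 genes outside the limit (open), on log axes, with lines at equality, at 0.5 (dashed) and at 1 (dotted) on the log2 scale. There are 7 genes at least 0.5 higher in GFC (blue), 14 at least 0.5 lower (orange) and 56 between (grey).

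The 14 members that were at least 0.5 lower in GFC had 1081 to 3166 RPM in 32X and 684 to 2011 RPM in GFC, with folds of 1.44 to 1.94. Together they accounted for 2.56% ± 0.305 of 32X reads and 1.55% ± 0.0130 of GFC reads (SD, n = 3). All 14 had every GFC library below every 32X library, which held for 22% of all listed genes. These members were chosen by direction and size, so nothing is read from that count or the next. The largest difference was that of Csa5G609710, read at 1311, 1730 and 1626 RPM in 32X and at 785, 813 and 793 RPM in GFC. Its GFC libraries lay close together and all below 32X, with a log2 difference of -0.95 ± 0.13. Among the line means it stood at rank 19 in 32X and rank 84 in GFC. Csa5G606810 was read at 1477, 1940 and 1629 RPM in 32X and at 1028, 620 and 1078 RPM in GFC. Here GFC replicate 2 was far below the other GFC libraries, and the log2 difference was -0.92 ± 0.21.

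The 7 members that were at least 0.5 higher in GFC had 684 to 1835 RPM in 32X and 1088 to 3336 RPM in GFC, with folds of 1.44 to 1.87. Together they accounted for 0.685% ± 0.181 of 32X reads and 1.14% ± 0.224 of GFC reads (SD, n = 3). In 5 of the 7 every GFC library was above every 32X library, which held for 21.4% of all listed genes. In all 7, 32X replicate 2 was the lowest 32X library and GFC replicate 2 the highest GFC library. Over all listed genes the first held for 35.2% and the second for 30.9%. The 7 were chosen by a difference that such departures enlarge, so nothing is read from these counts. Csa4G295440 had the largest difference and was also the sixth most read gene. It was read at 2414, 1137 and 1953 RPM in 32X and at 2645, 4176 and 3186 RPM in GFC. Its lines did not overlap, but 32X replicate 1 and GFC replicate 1 lay close together, and its log2 difference was 0.90 ± 0.27. Its ranks were 8, 37 and 13 in 32X and 5 in every GFC library. Without 32X replicate 2 the difference was 0.59 and without GFC replicate 2 it was 0.73. Without 32X replicate 1 it was 1.14 and without GFC replicate 1 it was 1.06. Csa5G512930 was read at 1146, 550 and 948 RPM in 32X and at 1040, 2226 and 1464 RPM in GFC. Its lines overlapped, since GFC replicate 1 was below 32X replicate 1, and its rank ran from 9 in GFC replicate 2 to 142 in 32X replicate 2. Its log2 difference was 0.83 ± 0.31, and it was 0.53 without 32X replicate 2 and 0.55 without GFC replicate 2. It was 1.06 without 32X replicate 1 and 1.10 without GFC replicate 1. The fit over all genes called Csa4G295440 higher and did not call Csa5G512930.

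At the other end, 14 members differed by less than 0.1 between the lines, and the libraries of the lines overlapped for all 14. Among all listed genes, 43.4% had fully separated lines. These 14 members were chosen for a small line difference, which favours overlap, so nothing is read from their overlap. They had means of 809 to 1203 RPM, and the first of them stood at place 30 in the order by mean level. Csa2G381890, picked for the smallest ratio between its highest and lowest library after the values were seen, was read at 1056, 978 and 1027 RPM in 32X and at 988, 1057 and 1041 RPM in GFC. That ratio was 1.08, against a median of 1.54 over the 77 genes and 4.05 for Csa5G512930, the largest. It was under 1.2 for 8 members and at least 2 for 11.

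Members near the limits of the rule had values close to those of the genes just outside it. The members of lowest mean level were Csa3G135010 (809 RPM) and Csa6G366520 (812 RPM). The next genes below the limit were Csa7G450710 (793 RPM) and Csa1G228960 (791 RPM). Nothing in these values sets a gap at 800 RPM. On the side of the line difference, Csa3G873800 lay just outside at 1.02 ± 0.19, with 693, 454 and 817 RPM in 32X and 1292, 1297 and 1289 RPM in GFC. Csa1G062960 lay just outside at -1.04 ± 0.14, with 1104, 1347 and 1072 RPM in 32X and 659, 493 and 560 RPM in GFC. Csa1G445860 and Csa3G026660, named to complete the 4, lay at -1.19 ± 0.10 and -1.26 ± 0.22. Without 32X replicate 2 the first 2 were at 0.78 and -0.94, inside the limit, and without GFC replicate 2 Csa1G062960 was at -0.94. Some named members crossed the limit the other way. Without 32X replicate 1 Csa4G295440 was at 1.14, Csa5G512930 at 1.06, Csa5G609710 at -1.07 and Csa5G606810 at -1.01. Without 32X replicate 3 Csa6G356990 was at -1.01. Without GFC replicate 1 Csa4G295440 was at 1.06, Csa5G512930 at 1.10 and Csa5G606810 at -1.03. Without GFC replicate 3 Csa5G606810 was at -1.06.

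In the fit over all genes, 7 members were called higher and 16 lower in GFC (adjusted p under 0.05 by the Benjamini-Hochberg method, from limma), where 20.6% of all 17073 genes were called, 8.38% higher and 12.2% lower. The lines were fully separated, with no overlap of their libraries, in 52 of the 77 members, 27 with GFC above and 25 with GFC below, where 43.4% of all genes had this property. The rule used this contrast, so nothing is read from these counts. The counts moved with single libraries. Without 32X replicates 1, 2 and 3 the members called higher numbered 15, 4 and 1 and those called lower 21, 16 and 11. Of all 17073 genes the same fits called 2078, 990 and 683 higher and 2680, 1551 and 1259 lower. In either direction this is 27.9%, 14.9% and 11.4% of all genes. Without GFC replicates 1, 2 and 3 the members called higher numbered 4, 1 and 1 and those called lower 9, 10 and 6. Of all genes these fits called 704, 510 and 384 higher and 1512, 1123 and 962 lower. In either direction that is 13.0%, 9.56% and 7.88% of all genes. With TMM or median-of-ratios scaling 4 members were called higher and 16 lower.

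The spread between replicates of a line far exceeded counting error. The rule did not use this spread directly, but a single high library can carry a gene's mean over the limit. The median CV of the members was 10.9% in 32X and 6.42% in GFC, where counting alone gives a median of 0.741% and 0.712%. The observed CV was above the counting CV for 77 of 77 members in 32X and 76 of 77 in GFC. In the genes with 100 to 800 RPM the median CV was 8.56% in 32X and 4.78% in GFC, and over all genes it was 10.7% and 7.58%. In both lines the members' median was above that of the genes with 100 to 800 RPM, although those have fewer reads. Only 48 of the 77 members were at 800 RPM or above in every library, and the part of selection in this comparison was not tested.

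**Figure D4:**
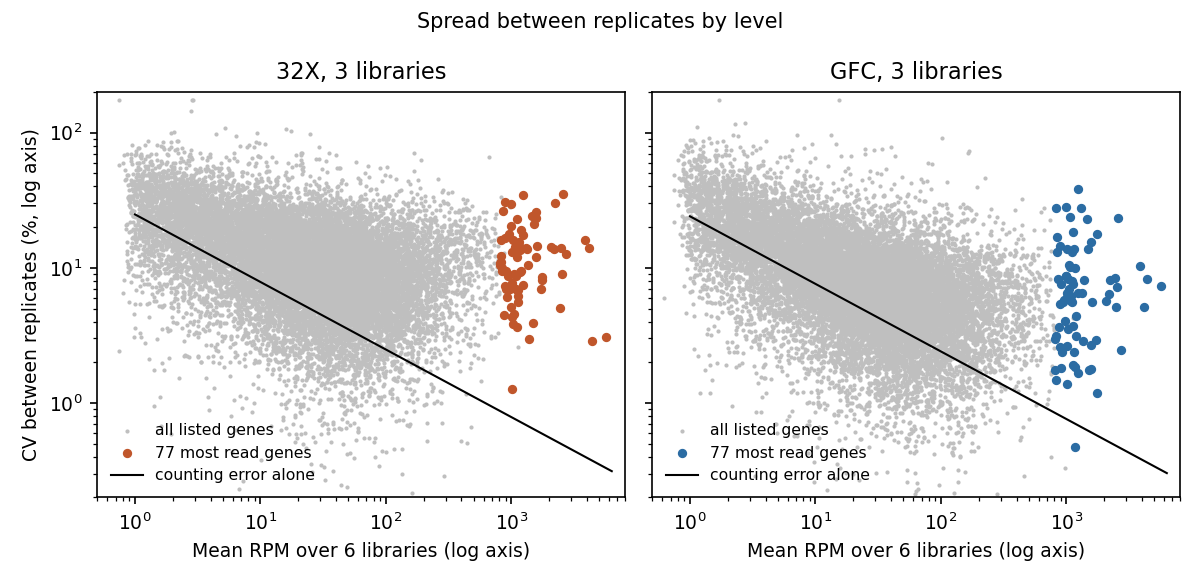
CV between the 3 replicates (%) against mean RPM, both on log axes, for all listed genes (grey) and the 77 members (coloured), in 32X on the left and GFC on the right, with the line that counting error alone gives. All but 1 of the coloured points across both panels lie above the line, with medians of 10.9% in 32X and 6.42% in GFC.

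Among the members the spread varied widely. The CV ran from 1.26% to 35.2% in 32X and from 0.472% to 38.1% in GFC. It was under 5% for 10 members in 32X and 27 in GFC, and over 20% for 12 members in 32X and 7 in GFC. Averaged over the lines, the widest spread was that of Csa5G512930 (36.3%) and Csa4G295440 (29.2%), which are also the members that differed most toward GFC. In both, a low 32X replicate 2 and a high GFC replicate 2 raise the spread and the line difference together, so nothing is read from this. The narrowest was that of Csa4G001980 (1.94%), read at 1040, 1047 and 1065 RPM in 32X and at 975, 964 and 927 RPM in GFC. Its libraries did not overlap between lines although its log2 difference was only -0.14 ± 0.10. Csa6G488340 (2.87%) was next, at 1111, 1203 and 1125 RPM in 32X and 896, 879 and 872 RPM in GFC.

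In both lines replicate 2 most often stood apart. In 32X, replicate 2 was the library farthest from the mean of the other 2 for 43 of 77 members, against 22 for replicate 1 and 12 for replicate 3. In GFC, replicate 2 was farthest for 52 members, against 20 and 5. These are 55.8% and 67.5% of the members. Over all listed genes the same libraries were farthest for 44.7% and 46.2% of the genes, and in the genes with 100 to 800 RPM for 53.7% and 56.6%. The median CV of the members was 5.63% in 32X without replicate 2 and 3.13% in GFC without replicate 2. It was 9.62% and 13.0% in 32X without replicates 1 and 3, and 5.09% and 8.44% in GFC without replicates 1 and 3. The larger CV was in 32X for 54 of 77 members, for 74.8% of the genes with 100 to 800 RPM and for 64.6% of all listed genes.

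The direction of these departures was counted in the members and, as a background, over all genes. GFC replicate 2 was the highest GFC library for 50 members (64.9%) and the lowest for 20. Over all genes it was the highest for 30.9% and the lowest for 47.4%, and in the genes with 100 to 800 RPM for 35.6% and 49.4%. 32X replicate 2 was the lowest 32X library for 42 members (54.5%) and the highest for 22. Over all genes it was the lowest for 35.2% and the highest for 40.4%. In the genes with 100 to 800 RPM it was the lowest for 44.2% and the highest for 38.0%, the same order as in the members. Of the 42 members higher in GFC, 35 had their lowest value of all 6 libraries in 32X replicate 2, and 29 had their highest in GFC replicate 2. Of the 35 members lower in GFC, 18 had their highest value in 32X replicate 2 and 13 in 32X replicate 3, while the lowest value was in GFC replicate 1 for 14, replicate 2 for 11 and replicate 3 for 7. A replicate that departs from the others helps to set the direction by which these members were grouped, and 8 members changed direction without 32X replicate 2, so nothing is read from these counts. 32X replicate 2 had the fewest reads of all libraries (15320600), and GFC replicate 2 had 17667364, between the other GFC libraries, and the part of depth in these departures was not tested.

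**Figure D5:**
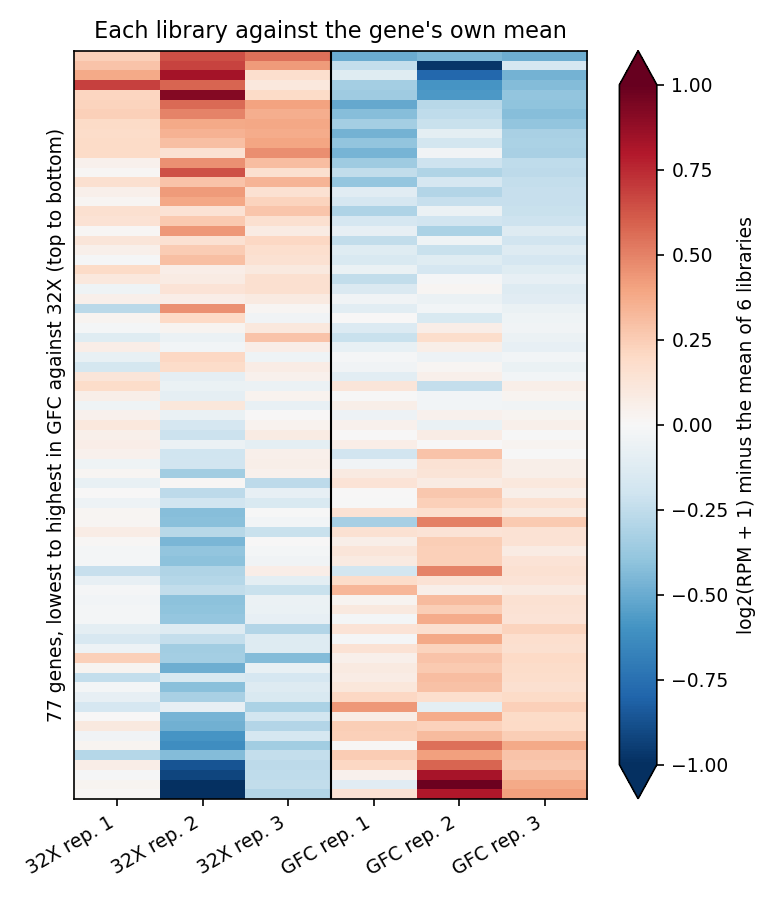
log2(RPM + 1) of each library minus the gene's mean over the 6 libraries, for the 77 members ordered from lowest to highest in GFC against 32X, with red above and blue below the mean and colours saturated at 1. The strongest colours are in the columns of 32X replicate 2 and GFC replicate 2, at the top and the bottom of the order.

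The members were spread over all chromosomes by the code in their IDs. In these IDs Csa is followed by the chromosome, or by UN where the sequence is unplaced. Chromosomes 3, 4 and 6 held 13 members each, chromosome 5 held 12, chromosome 1 held 11, chromosome 2 held 8, chromosome 7 held 6 and unplaced sequence held 1. This is 0.357% of the listed genes on chromosome 7 and 0.638% on chromosome 4. Chromosome 6, with 16.9% of the members, held 21.9% of their reads, since Csa6G139750 and Csa6G448110 lie on it. On chromosome 6, 3 members were higher and 10 lower in GFC, and on chromosomes 1 and 2 the counts were 8 against 3 and 7 against 1. On chromosomes 3 and 4 they were 7 against 6 each, on chromosome 5 they were 6 against 6 and on chromosome 7 they were 3 against 3. These counts were not tested, and the share of each direction among all listed genes of a chromosome is not given here. Without 32X replicate 2 the direction of 8 members turned, so nothing is read from the counts by chromosome.

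A few members lay close together in the order of IDs. Within 5 places among the listed genes of a chromosome there were 5 pairs of successive members, and in 4 of them both genes had the same direction. The closest was Csa6G522680 (2532 RPM) with the listed gene next to it (1563 RPM), at log2 differences of -0.74 and -0.54. A pair on chromosome 1, 2 places apart, had 998 and 886 RPM and log2 differences of 0.79 and 0.71. The pair with opposite directions was on chromosome 5, 3 places apart, with Csa5G198770 at -0.54 and its partner at 0.29. Neighbouring genes can be copies of each other, and how reads shared between copies were counted is not stated, so the split of reads within such pairs is uncertain.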

How the data were processed

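RNA from fruits was sequenced in 6 libraries, made with a directional Illumina kit per the labels' protocols. The authors deposited a table of RPM values per gene and library. TopHat and HTSeq were used, per the submitters' processing notes. For versions, genome build, annotation and strand setting of the counting, the sources used here give nothing. A column sums to 1000000 over its 17073 genes, and no listed gene is under 1 RPM in more than 3 of the 6 libraries.

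RPM values were whole multiples of 1 read for 100% of values in every library (within 0.001 reads). The smallest value stood for 2 reads in 32X replicate 3 and for 1 read elsewhere. The recovered reads gave depth, and edgeR's test on them called 3494 genes (20.5%) against 3517 by limma.

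Line differences came from limma 3.58.1 (R 4.3.3), fitted over all genes to log2(RPM + 1), with an intensity trend, no covariates, a two-sided test and Benjamini-Hochberg adjustment. The fit was also run on simulated counts with known changes. No library of the simulation was made to depart from the others, as replicate 2 does here, and nothing is read from it. Alternatives were edgeR 4.0.16 and DESeq2 1.42.0 on recovered reads, scaling by TMM, median of ratios or quantiles, a pseudocount of 0.1 or 5, no filter on low values, the replicate number as a block, library weights, other limits of the rule and each library left out.

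Named genes are the 10 of highest mean, the 2 of largest difference in each direction, the 2 nearest each side of 800 RPM, the 2 just outside the difference limit and the 2 of widest and narrowest CV. The members and this rule were chosen with earlier results of these data known. Planned lists by gene function matched no ID.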

Additional observations from a re-analysis of the deposited data

How the results depend on the processing

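The 77 members became 187 at a limit of 500 RPM and 48 when 800 RPM was asked of every library, both by construction. Leaving out 1 library gave 73 to 81. At limits of 500 and 1000 RPM the share of reads was 17.7% and 9.28% in 32X and 17.9% and 9.13% in GFC. With no limit on the difference it was 11.6% in 32X and 11.3% in GFC. Members called higher (7 by limma) numbered 4 with TMM and with median-of-ratios scaling, 19 in DESeq2, 24 with library weights, 1 with the replicate number as a block and 1 to 15 without 1 library. Members called lower (16) numbered 6 to 21 without 1 library, 19 in edgeR, 23 in DESeq2, 24 with library weights and 11 with the block. The share of all genes called in either direction was 20.6% by limma, 20.6% with TMM, 20.9% with median-of-ratios scaling and 20.5% in edgeR. It was 23.3% in DESeq2, 39.1% with library weights, 12.1% with the block and 7.88% to 27.9% without 1 library. The cause was not tested. Whether libraries of the same number form pairs was not settled. Across genes, deviations from the line means gave r of -0.04, -0.27 and -0.09 for libraries of the same number. Between libraries of unlike number r ran from -0.25 to 0.28. Deviations within a line depend on each other, so these values cannot decide whether the libraries are paired. The median log2 difference of 0.018 was 0.0713 after quantile normalization and 0.0179 to 0.0749 without 1 library. The median CV in GFC was 7.41% with TMM and 7.60% with median-of-ratios scaling and 3.13% to 8.44% without 1 GFC library, and in 32X 5.63% to 13.0% without 1 32X library. Quantile normalization moved the log2 difference to -0.32 for Csa5G198770, 0.44 for Csa7G014450 and -0.06 for Csa4G001980. Among named genes with a small difference, Csa3G135010 went from 0.05 to -0.04 and Csa7G450710 from -0.14 to -0.09 without 32X replicate 2. The counting error of a member had a CV of at most 0.947%, and 3 libraries per line limit every estimate of spread.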
